A study of Mus musculus with 6 samples.

Results

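The myosin heavy chain genes described here are the 8 sarcomeric genes Myh3, Myh8, Myh2, Myh1, Myh4, Myh13, Myh6 and Myh7, with the non-muscle genes Myh9 and Myh10 for contrast. The members of the set are the accessible intervals that overlapped these genes on the mouse genome GRCm38.p6, each gene extended by 20 kb on both sides, with the spaces between the genes of a cluster included. There were 159 such intervals of 323483 in all. Of these, 49 lay in the chromosome 11 cluster of Myh3, Myh2, Myh1, Myh4, Myh8 and Myh13, 17 at the chromosome 14 pair of Myh6 and Myh7, 55 at Myh9 and 38 at Myh10.

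Accessibility was measured by ATAC-seq, in which a transposase cuts and tags open chromatin, on mouse embryonic fibroblasts of the strain M2-rtTA x TetO-Myf6, heterozygous for both alleles and kept for 24 h in medium with bFGF at 10 ng/mL. There were 3 groups of 2 libraries each, the first given doxycycline at 2 µg/mL together with 5 µM forskolin, 5 µM RepSox and 3 µM CHIR99021 (Myf6 with F/R/C), the next given doxycycline alone (Myf6), and the last given the medium alone. Doxycycline switches on the Myf6 transgene, which encodes a myogenic transcription factor, and both alleles were carried by the medium group too. Nothing in the labels tells if both libraries of a group were separate cultures. The file analysed holds 1 joined interval set for the whole experiment, giving where each interval lies and nothing measured per library or per group. An interval therefore says that accessible chromatin was detected there somewhere in the experiment, not in which group, and the read depth behind it is unknown. No group difference was analysed here, no value below has a replicate error, and every comparison is a description of positions with no test.

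Myosin heavy chains are the motor proteins of the myosin II class. In striated muscle they form the thick filament of the sarcomere, and each gene of the family marks a developmental stage or a fibre type: Myh3 is the embryonic and Myh8 the perinatal form, Myh2, Myh1 and Myh4 are the adult fast forms IIa, IIx and IIb, Myh13 is the extraocular form, Myh6 is the alpha form of the heart, and Myh7 is the beta form of heart and slow muscle. Myh9 and Myh10 encode non-muscle myosin heavy chains IIA and IIB, which drive contractility and migration in fibroblasts and most other cells. The adult fast genes lie next to each other, and work in mouse muscle has placed an enhancer that they share upstream of Myh2.

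The start sites of the 2 kinds of gene differed in how much of them was accessible. The sequences below are RefSeq start windows on GRCm38.p6, from 250 bases before to 50 after the start site, shown because they are, for each gene with a covered base, the window with the most bases under an interval. Capitals mark the bases under an accessible interval. Of the sarcomeric genes Myh1 (chr11:67199852-67200151, plus strand), Myh13 (chr11:67326853-67327152, plus strand) and Myh7 (chr14:54994577-54994876, minus strand) had partly covered windows, and the windows of Myh9 (chr15:77842126-77842425, minus strand) and Myh10 (chr11:68691665-68691964, plus strand) lay wholly under an interval.
Myh1: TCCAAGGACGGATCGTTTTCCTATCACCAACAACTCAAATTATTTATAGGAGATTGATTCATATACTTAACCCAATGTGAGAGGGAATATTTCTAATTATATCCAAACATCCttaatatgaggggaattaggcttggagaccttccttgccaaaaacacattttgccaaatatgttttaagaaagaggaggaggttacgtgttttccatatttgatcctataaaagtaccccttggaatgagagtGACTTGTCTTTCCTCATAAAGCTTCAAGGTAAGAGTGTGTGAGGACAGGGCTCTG
Myh13: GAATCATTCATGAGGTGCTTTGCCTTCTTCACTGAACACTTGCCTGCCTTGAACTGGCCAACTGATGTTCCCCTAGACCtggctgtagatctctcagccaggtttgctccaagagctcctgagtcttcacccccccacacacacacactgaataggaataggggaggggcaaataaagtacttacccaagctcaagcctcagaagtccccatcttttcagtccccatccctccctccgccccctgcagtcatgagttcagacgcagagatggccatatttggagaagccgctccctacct
Myh7: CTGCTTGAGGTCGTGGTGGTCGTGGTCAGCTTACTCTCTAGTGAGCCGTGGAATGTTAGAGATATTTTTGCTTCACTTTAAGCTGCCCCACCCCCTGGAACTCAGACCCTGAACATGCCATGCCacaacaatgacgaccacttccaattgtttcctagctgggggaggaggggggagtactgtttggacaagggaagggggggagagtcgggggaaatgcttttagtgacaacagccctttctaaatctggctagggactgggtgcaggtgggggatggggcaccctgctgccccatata
Myh9: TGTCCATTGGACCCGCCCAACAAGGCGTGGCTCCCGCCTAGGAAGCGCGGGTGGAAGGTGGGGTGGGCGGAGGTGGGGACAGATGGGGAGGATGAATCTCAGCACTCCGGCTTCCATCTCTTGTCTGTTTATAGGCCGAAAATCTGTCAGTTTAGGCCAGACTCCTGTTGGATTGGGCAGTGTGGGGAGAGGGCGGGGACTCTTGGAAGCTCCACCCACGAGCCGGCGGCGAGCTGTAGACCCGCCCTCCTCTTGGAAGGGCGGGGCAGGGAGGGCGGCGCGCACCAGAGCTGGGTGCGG
Myh10: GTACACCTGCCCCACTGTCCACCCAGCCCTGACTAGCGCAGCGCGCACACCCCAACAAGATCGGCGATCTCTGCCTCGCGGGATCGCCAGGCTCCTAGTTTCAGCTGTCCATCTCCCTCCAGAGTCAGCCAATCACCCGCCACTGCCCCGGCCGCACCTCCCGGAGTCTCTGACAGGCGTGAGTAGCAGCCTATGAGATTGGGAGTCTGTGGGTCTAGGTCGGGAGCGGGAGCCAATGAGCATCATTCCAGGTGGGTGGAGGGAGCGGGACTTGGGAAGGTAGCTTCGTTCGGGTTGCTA

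An interval overlapped the start window in 3 of the 8 sarcomeric genes and in both non-muscle genes, against 67.0% of the 17491 protein-coding genes with a start window. None of the 8 sarcomeric windows was covered over its whole length. Myh1 had 167 of its 300 bases covered, Myh7 124 and Myh13 79, against all 300 in Myh9 and in Myh10. The start windows of Myh3, Myh8, Myh2, Myh4 and Myh6 held no covered base.

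Myh1 was the only sarcomeric gene of the 8 whose start site lay inside an interval. That interval, from 67200097 to 67200233, measured 137 bp, and a broader interval of 1005 bp from 67198959 to 67199963 ended 139 bp before the start site. Together they filled 39.1% of the 2.58 kb between Myh2 and Myh1. At Myh13 an interval of 650 bp, from 67326282 to 67326931, stopped 172 bp short of the start site. At Myh7 an interval of 132 bp, from 54994753 to 54994884, stopped 127 bp short of the outer of the 2 annotated start sites and 204 bp short of the inner.

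At the non-muscle genes a single broad interval held the start site. It measured 1052 bp at Myh9, from 77841862 to 77842913, and 2175 bp at Myh10, from 68691257 to 68693431. Over the 11718 protein-coding genes with an interval at a start window, the widest such interval had a median of 1294 bp with quartiles of 984 and 1644 bp. The Myh9 interval lay between these quartiles and that of Myh10 above them. The widest over the Myh1 window, 1005 bp, also lay between them. Those over the windows of Myh13 and Myh7, 650 and 132 bp, lay below.

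The other sarcomeric start sites were at very different distances from the nearest interval. At Myh3, the embryonic gene, it ended 1043 bp before the start site, and the next lay 1824 bp inside the gene. At Myh4, the IIb gene, the nearest interval lay 1909 bp before the start site and the next 75973 bp after it. At Myh2, the IIa gene, the distances were 5198 bp before and 19346 bp after. The start site of Myh6, the alpha cardiac gene, was 14468 bp from the nearest interval, and that of Myh8, the perinatal gene, 36661 bp. The annotated upper end of Myh6 lies beyond this start site, and no interval lay within 1 kb of that end either.

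Within 5 kb of the start site, Myh3 and Myh1 had 4 intervals, Myh7 had 3, Myh13 and Myh4 had 1, and Myh2, Myh6 and Myh8 had 0. Myh9 had 3 and Myh10 had 1, where the 17491 protein-coding genes with a start window had a median of 2, and 20.0% of them had 0. The Myh10 start site thus had a single wide interval with no other within 5 kb. The 4 at Myh3 lay around a bare start site and measured 372 to 580 bp, each above the median of 336 bp over all intervals.

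**Figure D1:**
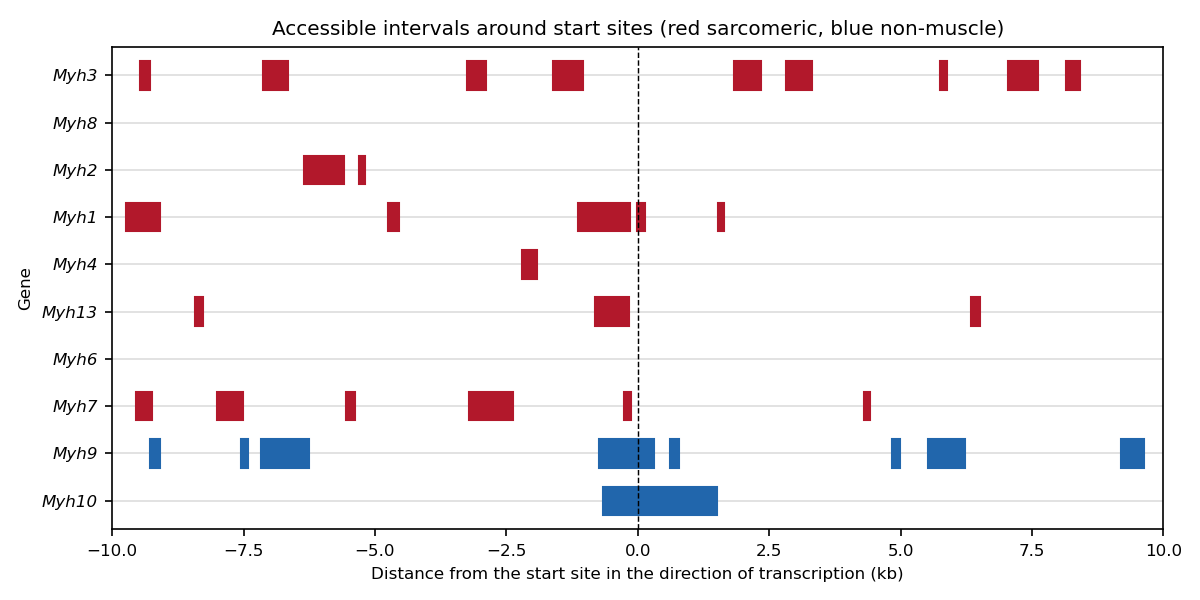
Accessible intervals within 10 kb of each start site, 1 row per gene, with distance in kb along the direction of transcription and each block drawn from the start to the end of an interval. The dashed line at 0 is crossed by a block in Myh1, Myh9 and Myh10, and the rows of Myh8 and Myh6 are empty.

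Base composition separated the 2 kinds of start window. The 9 start windows of the sarcomeric genes (Myh7 has 2) held 1 to 9 CpG dinucleotides at a GC content of 38 to 57.3%, and the 2 windows of the non-muscle genes held 18 to 19 at 62.7 to 64.7%. Across the 21262 start windows of all protein-coding genes the medians were 13 CpG and 56.3% GC. CpG-rich start regions are known as CpG islands and are common at genes used in many tissues. Over all genes, 95.8% of the windows with over 15 CpG held an interval, against 73.1% of those with 6 to 15 and 21.1% of those with 0 to 5.

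Of the 6 sarcomeric genes with a window of 0 to 5 CpG, Myh1, Myh13 and Myh7 had an interval over it. Myh3, Myh4 and Myh6 had none, so that 3 of the 6 held an interval in the class where 21.1% of windows did. Myh8 with 6 CpG and Myh2 with 9 fell into the middle class and had none, so that 0 of the 2 held an interval in the class where 73.1% of windows did. Myh9 with 19 CpG and Myh10 with 18 were in the CpG-rich class. The part of CpG content in the presence of an interval at these genes was not tested.

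**Figure D2:**
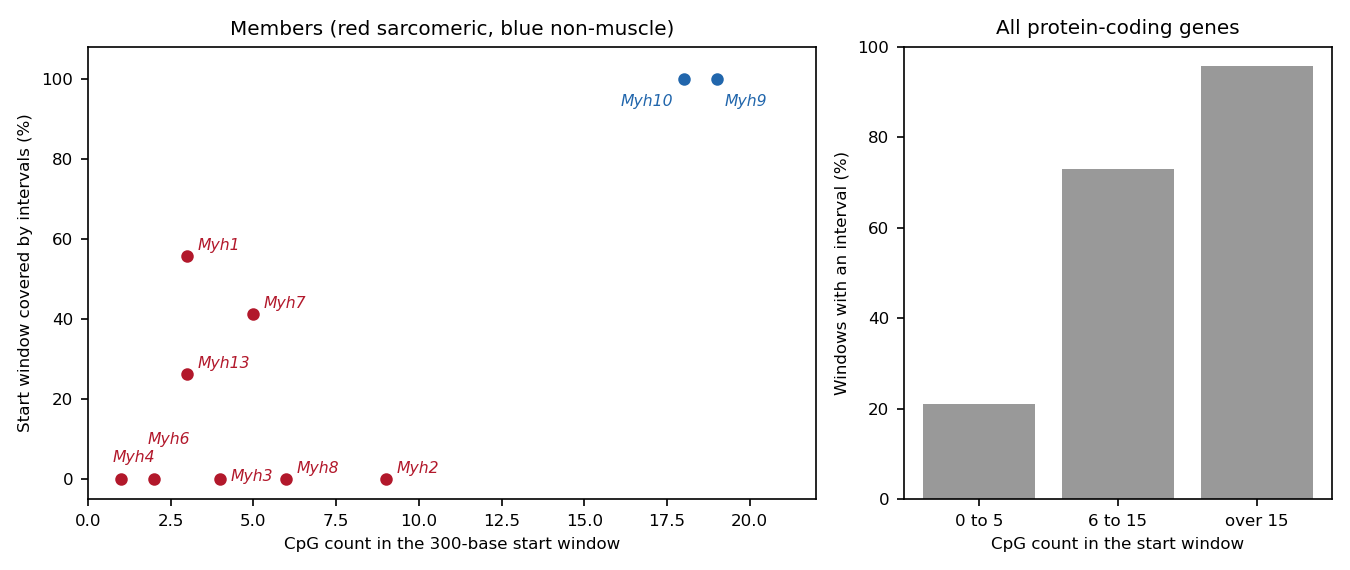
Left, the share of the 300-base start window covered by intervals against the number of CpG dinucleotides in it, 1 point per gene (the better covered window for Myh7), and right, the share of start windows of all protein-coding genes that held an interval, by CpG count. Myh9 and Myh10 sit at 100% with 18 to 19 CpG, and the 8 sarcomeric genes sit at 9 CpG or fewer with 55.7% or less of the window covered.

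The adult fast and perinatal genes carry related start windows, of which that of Myh1 alone touched an interval. The longest run of bases common to Myh2, Myh1, Myh4 and Myh8 was 14 bases on the same strand, found in 4 of the 21262 start windows, namely those 4. It is shown in capitals with 25 bases on either side, plus strand of chromosome 11, because these promoters share it and differ in their intervals. The windows printed are chr11:67170877-67170940 for Myh2, chr11:67199917-67199980 for Myh1, chr11:67237629-67237692 for Myh4 and chr11:67277045-67277108 for Myh8.
Myh2: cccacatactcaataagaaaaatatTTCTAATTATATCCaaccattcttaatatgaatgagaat
Myh1: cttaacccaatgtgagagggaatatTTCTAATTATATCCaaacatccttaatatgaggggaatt
Myh4: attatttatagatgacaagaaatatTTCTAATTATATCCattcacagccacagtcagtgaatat
Myh8: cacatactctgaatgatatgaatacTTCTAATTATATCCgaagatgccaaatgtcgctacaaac

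Counted from the start site, the run began at base -125 in Myh2, -160 in Myh1, -158 in Myh4 and -54 in Myh8. In Myh1 it lay under the interval of 1005 bp, and in Myh2, Myh4 and Myh8 under none. No start windows of 2 members shared an unbroken run longer than 22 bases, which was the run common to Myh8 and Myh1. Reads from near-identical stretches of the genes themselves may be placed in more than 1 copy, and the sources used here do not say how the authors treated such reads. Their part in the stretches without intervals was not tested.

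Motifs of muscle regulators, and the motif TATAAA, were searched in the same start windows on both strands. The E-box CANNTG, bound by myogenic factors such as Myf6, occurred in 6 of 8 sarcomeric and 2 of 2 non-muscle genes, against 69.0% of all windows. The form CAGCTG, a match of which is also an E-box match, occurred in Myh4 alone of the sarcomeric genes, 67 bases before its start site, and in Myh10, against 15.6% of all windows. The motif TATAAA was in 6 of the 8 sarcomeric genes and in Myh9 (12.6% of all windows), and CATTCC, read by TEAD factors, in 4 of the 8 and in Myh10 (13.6%). A MEF2 site occurred in Myh8, Myh1 and Myh4, against 2.74% of all windows, and a CArG box, the SRF site, in Myh4 and Myh13, against 1.52%. MEF2 matches can overlap TATAAA. Myh4, with no covered base in its window, held all 6 motifs, and a match here is only a match of letters.

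Across whole loci the median density of the sarcomeric genes was below both non-muscle genes, although Myh3 had more intervals per 100 kb than Myh10. The 8 sarcomeric genes with 20 kb on either side had a median of 13.7 intervals per 100 kb, from 4.20 at Myh8 to 29.7 at Myh3. Myh9 had 45.2 and Myh10 23.1, and the median over 21883 protein-coding genes was 18.2 with quartiles of 9.17 and 25.4. The extended windows of neighbouring cluster genes overlap, so they share intervals and are not separate measurements.

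In order of density the genes ran Myh9 (45.2 per 100 kb), Myh3 (29.7), Myh10 (23.1), Myh13 (16.6), Myh7 (15.6), Myh1 (14), Myh2 (13.5), Myh6 (12.1), Myh4 (6.39) and Myh8 (4.20). With no replicate values, neighbours in this order cannot be told apart by error. Myh9 exceeded 99.5% of all protein-coding genes, Myh3 86.8% and Myh10 67.1%. The other 7 sarcomeric genes exceeded between 17.2% (Myh8) and 44.5% (Myh13). Among genes of 10 to 50 kb, Myh3 exceeded 85.6%, Myh4 13.9% and Myh8 11.2%, and among genes of over 50 kb, Myh9 exceeded 99.7% and Myh10 71.1%.

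**Figure D3:**
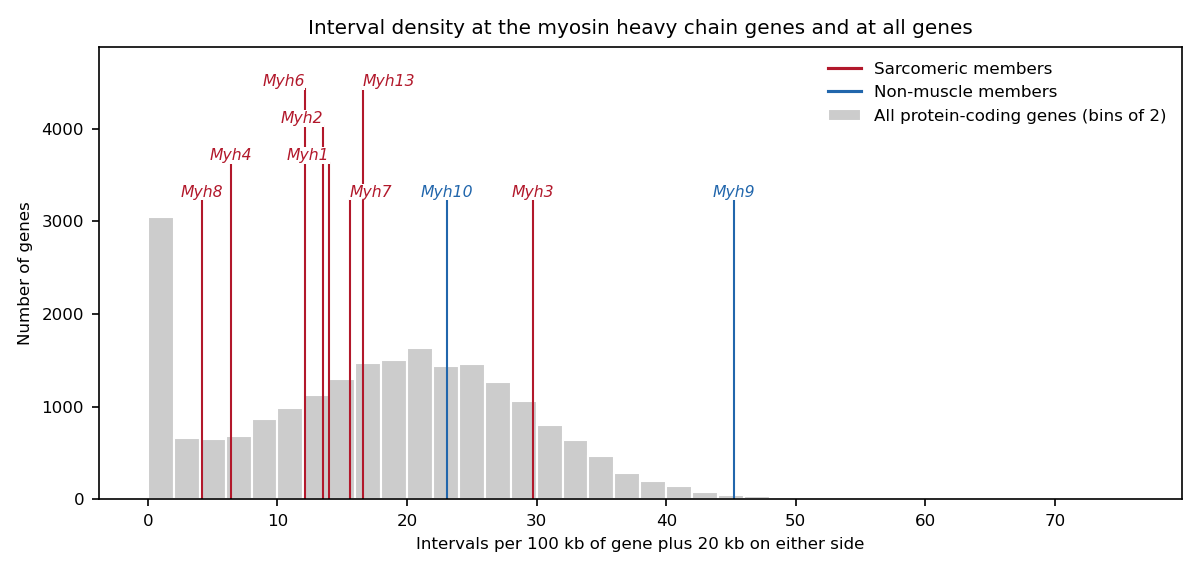
Number of intervals per 100 kb of gene plus 20 kb on either side, as a histogram of 21883 protein-coding genes in bins of 2, with a vertical line at the value of each myosin heavy chain gene (line heights only separate the labels). Myh8 (4.20) and Myh4 (6.39) lie lowest of the lines and Myh9 (45.2) lies in the upper tail.

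Over the chromosome 11 cluster as a whole, from 67058273 to 67391587, 49 intervals gave 14.7 per 100 kb and covered 5.54% of 333 kb. Windows of the same length laid end to end along chromosomes 1 to 19 and X, 7878 in number, had medians of 12.0 per 100 kb and 5.05%, and 59.1% of them had fewer intervals. Seen as a block, the cluster was thus near the middle of the genome, but its intervals were unevenly spread. Of the 49, 5 overlapped the 20 kb before Myh3, 8 overlapped Myh3 and 13 the space from Myh3 to Myh2, while Myh4, Myh8 and the space between them had 0.

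Of the 8 sarcomeric genes of the set, Myh3 alone had a gene body covered as densely as a typical gene. It held 8 intervals over 24.0 kb, covering 11.1% of it, against a median of 9.54% over genes of 10 to 50 kb, and the widest measured 560 bp, from 67085350 to 67085909. The first 4 within the gene lay at 67080124 to 67080636, 67081125 to 67081609, 67084050 to 67084187 and 67085350 to 67085909. A last interval of 299 bp, from 67101844 to 67102142, lay at its far end. Before the gene, 5 intervals overlapped the 20 kb toward Sco1, a gene of cytochrome oxidase assembly.

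The 68.7 kb between Myh3 and Myh2, the side of the fast genes on which their shared enhancer has been placed, held 13 intervals covering 6.64%. The first 5 followed Myh3 closely, from 67104838 to 67105019, 67105682 to 67106121, 67107064 to 67107335, 67110176 to 67110517 and 67111080 to 67111261. The sixth was the widest of the cluster, 1168 bp from 67112003 to 67113170, and spanned the far end of 2310065F04Rik (linc-Myh), a long noncoding RNA described in fast muscle, which runs on the minus strand. Beyond it 5 intervals were spaced more widely, at 67125446 to 67125830, 67133700 to 67133795, 67144678 to 67144969, 67151751 to 67151975 and 67153313 to 67153419. The last of this space were an interval of 767 bp at 67164673 to 67165439 and one of 109 bp at 67165721 to 67165829, the closest to the Myh2 start site. None of the 13 overlapped Gm31285, another noncoding gene of the space.

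Of the adult fast genes, Myh2 had 2 intervals and Myh1 had 5, while Myh4 had 0. Those of Myh2 lay in its later part, at 67190373 to 67191004 (632 bp) and 67195348 to 67195566 (219 bp), and covered 3.21% of the gene. Those of Myh1 covered 3.57% and stood at both ends, with 20.2 kb between them that held no interval. The widest over Myh1, 736 bp from 67224268 to 67225003, spanned its far end, where the noncoding gene Myhas (also lnc-mg) overlaps it. A single further interval, 289 bp from 67235615 to 67235903, lay before Myh4, inside Myhas.

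From 67235904 to 67313784, over 77.9 kb, no interval was found. This stretch holds the whole of Myh4, the fastest adult form, and the whole of Myh8, the perinatal form, with the space between them. Of 323376 stretches between neighbouring intervals in the genome, 2807 (0.868%) were longer. Of the 5094 protein-coding genes of 20 to 50 kb, 470 (9.23%) had no interval over the gene, and 342 of these lay in an empty stretch at least as long. In the set, 2 of the 8 sarcomeric genes and 0 of the 2 non-muscle genes had none.

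Beyond this stretch, 3 intervals led up to Myh13, the extraocular gene, at 67313785 to 67314271, 67318670 to 67318835 and 67326282 to 67326931. Myh13 itself had 7 over 44.5 kb, covering 5.49%, with the widest, 912 bp, at 67360209 to 67361120 in its later part. The 20 kb after Myh13 held 4 intervals, of which that at 67379673 to 67380732 (1060 bp) was the widest of the cluster outside genes.

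**Figure D4:**
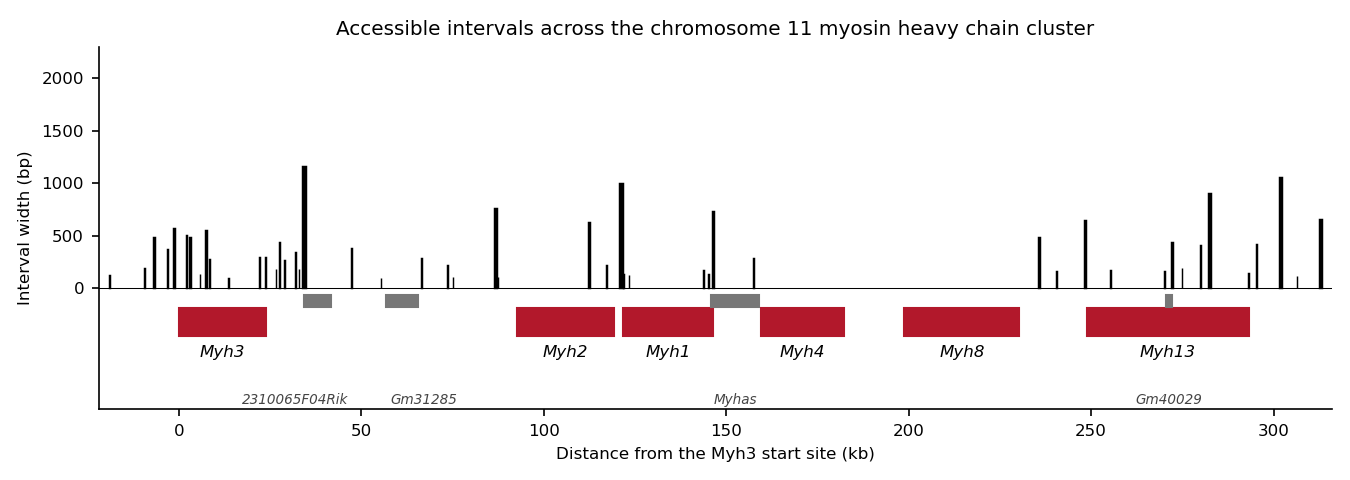
Map of the chromosome 11 cluster, with distance from the Myh3 start site in kb on the x axis and the width of each interval in bp as the height of a bar at its place (narrow bars are drawn at a minimum line width). Red boxes are the myosin heavy chain genes and grey boxes noncoding genes, and the 77.9 kb over Myh4 and Myh8 hold no bar.

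The cardiac pair on chromosome 14 showed intervals around it and few within it. In the 92.7 kb from 54921921 to 55014626, 17 intervals gave 18.3 per 100 kb, against a median of 10.8 in 28357 windows of that length. Of these 17, 6 overlapped the 20 kb on the Myh6 side, where Cmtm5 and Efs lie, and 8 the 20 kb on the Myh7 side. Myh6 and Myh7 had 2 and 1. The widest of the locus, 1651 bp from 54925665 to 54927315, was at the adaptor gene Efs and not at a myosin gene.

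Myh6 had intervals of 878 bp, from 54945673 to 54946550, and 308 bp, from 54951832 to 54952139, both toward its far end, covering 4.54% of it. Myh7 had 1 of 116 bp, from 54990215 to 54990330, covering 0.484%. Between these, 38.1 kb from 54952140 to 54990214 held none. This stretch contains the Myh6 start site, the space between the genes, most of Myh7 and Mhrt, a noncoding RNA of heart, and 2.51% of the stretches in the genome were longer. On the upstream side of Myh7 the intervals resumed 127 bp before its outer start site. They included one of 829 bp, from 54997005 to 54997833, inside the noncoding gene Gm31251. The widest of this side, 1570 bp, overlapped the gene Ngdn.

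Both cardiac genes host a microRNA, and neither microRNA lay under an interval. The mature forms in RefSeq on GRCm38.p6 are shown because the pair shares its seeds, bases 2 to 8, in capitals. Both hairpins are on the minus strand of chromosome 14, Mir208a from 54949060 to 54949142 in Myh6 and Mir208b from 54975700 to 54975776 in Myh7.
miR-208a-3p: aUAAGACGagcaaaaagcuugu
miR-208b-3p: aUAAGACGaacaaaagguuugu
miR-208a-5p: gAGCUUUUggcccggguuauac
miR-208b-5p: aAGCUUUUugcucgcguuaugu

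The 3p forms differ at 3 of 22 positions and the 5p forms at 6, all of them outside the seed. The Mir208a hairpin was 2510 bp from the nearest interval and the Mir208b hairpin 14439 bp, inside the empty stretch of 38.1 kb. A further microRNA gene, Mir6923, lies in Myh3 from 67099804 to 67099875, 295 bp from an interval.

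Non-muscle Myh9 had intervals spread along the gene. The gene of 81.6 kb held 36 intervals over 22.8% of its sequence, against a median of 7.75% over genes of over 50 kb. Those with more than 1 kb of width inside the gene lay 20.3 kb (1695 bp, 77820224 to 77821918), 42.5 kb (1622 bp, 77798041 to 77799662), 75.5 kb (1184 bp, 77765492 to 77766675) and 27.4 kb (1073 bp, 77813709 to 77814781) from the start site, besides that at the start site itself. The longest part of the extended gene window without an interval was 8.09 kb at Myh9 and 19.8 kb at Myh10. In the extended windows of the 8 sarcomeric genes it ran from 9.50 kb at Myh3 to 56.7 kb at Myh8. Apol8, an apolipoprotein L gene beyond the far end of Myh9, had 9 intervals over 40.3% of its length, and these count in the Myh9 window.

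Myh10 was less dense. It held 26 intervals over 125 kb, covering 10.2%, with the widest at its start site. The next in width lay 27.0 kb (1208 bp, 68718953 to 68720160), 58.5 kb (788 bp, 68750406 to 68751193) and 78.0 kb (737 bp, 68769946 to 68770682) from the start site. No interval was found over 19.8 kb from 68724364 to 68744179. In the 20 kb after Myh10, intervals overlapping the dynein regulator gene Ndel1 count in its window. Myh10 lies on the chromosome of the fast and developmental cluster.

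**Figure D5:**
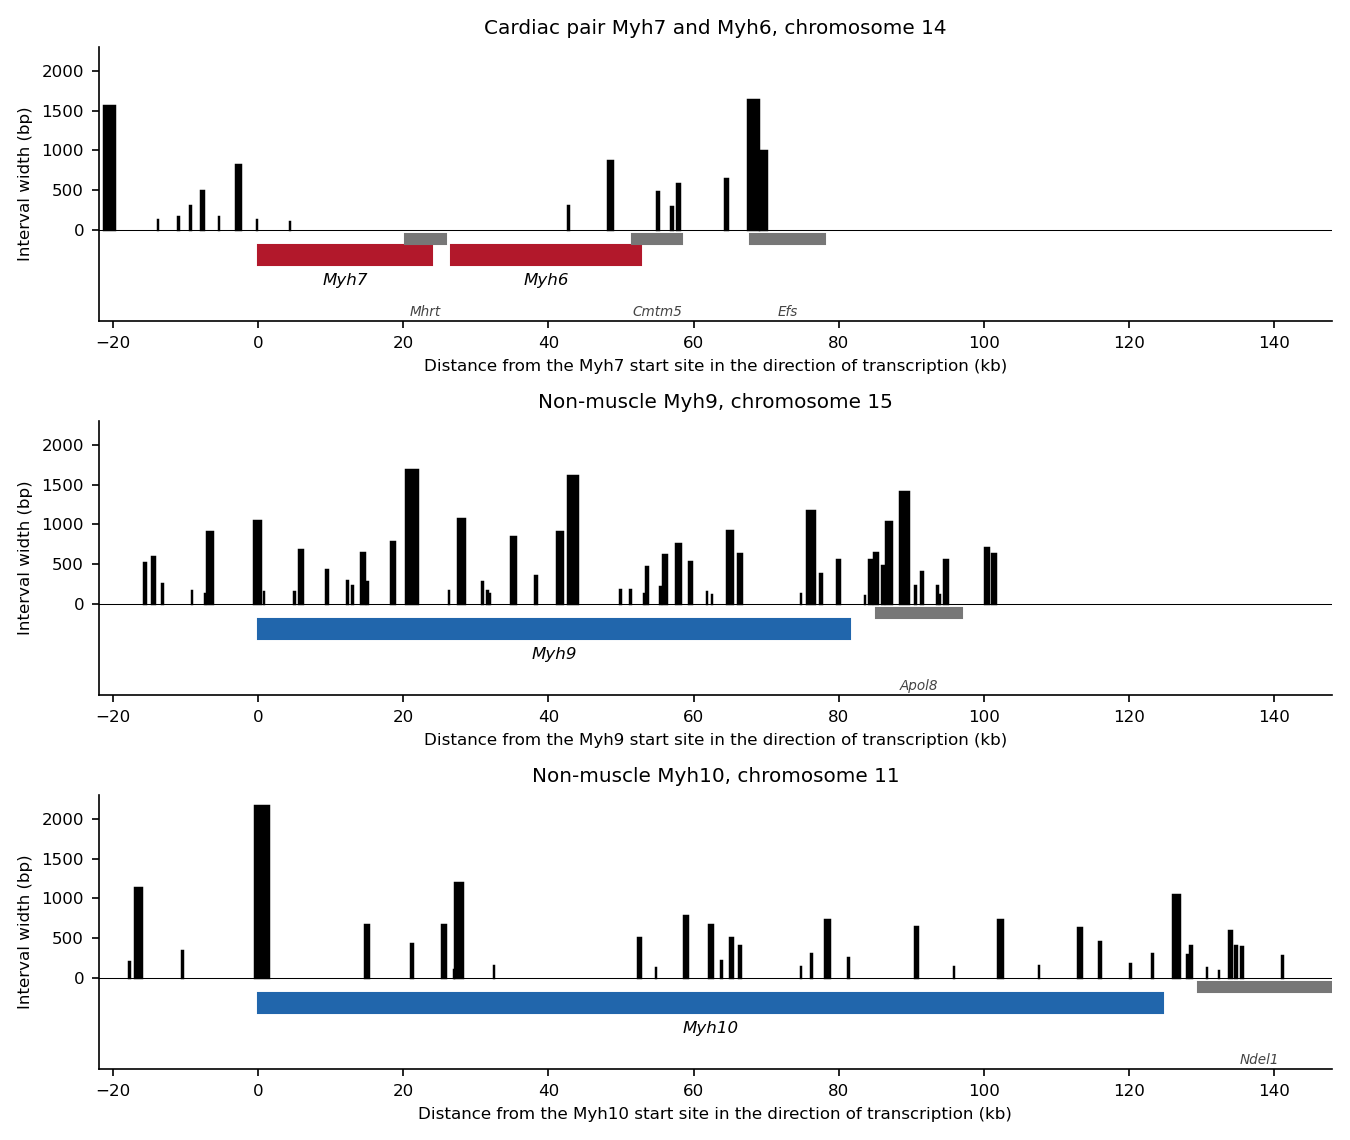
Maps of the cardiac pair, Myh9 and Myh10 at the same scale, with distance from the start site of Myh7, Myh9 or Myh10 along the direction of transcription in kb and interval width in bp as bar height (narrow bars are drawn at a minimum line width, grey boxes are other genes). Bars are spread along Myh9, while 38.1 kb of Myh7 and Myh6 are bare.

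Interval widths differed between the sarcomeric loci themselves. The chromosome 11 cluster had a median width of 292 bp with 18.4% of intervals at 600 bp or more, and the chromosome 14 pair 491 bp with 35.3%, against 470 bp with 38.2% at Myh9 and 406 bp with 34.2% at Myh10. The chromosome 11 cluster was thus below both non-muscle loci and the cardiac pair was not. Of the 6 intervals of 600 bp or more at the pair, only that of 878 bp in Myh6 overlapped a myosin gene. The others measured 1651 and 1008 bp at Efs, 1570 bp at Ngdn, 829 bp in the noncoding gene Gm31251 and 652 bp outside genes. Pooled, the 66 intervals of the chromosome 11 cluster and the chromosome 14 pair had a median width of 306 bp and 22.7% of them measured 600 bp or more. The 93 at Myh9 and Myh10 had a median of 418 bp with 36.6%, and all 323483 intervals a median of 336 bp with 25.5%. Sarcomeric and non-muscle widths overlapped broadly, with quartiles of 169 and 575 bp against 187 and 672 bp. Interval width is the extent of joined peaks and not a signal level.

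Counting either annotated end of the gene, 4 of the 8 sarcomeric genes (Myh3, Myh1, Myh13 and Myh7) and both non-muscle genes had an interval within 1 kb, against 74.7% of the 21883 protein-coding genes. Of the other 4 myosin heavy chain genes listed, smooth muscle Myh11 and non-muscle Myh14 had an end interval and Myh7b and Myh15 had none. Their densities were 20.3, 26.6, 23.8 and 9.88 per 100 kb in the same order. The Myh14 start window was covered over all 300 bases, and those of Myh7b and Myh15 over 0. Intervals covered 17.9% of the gene itself at Myh7b, above the 11.1% at Myh3. The share was 7.56% at Myh14, 6.51% at Myh11 and 3.43% at Myh15.

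The partners of these motors were listed for comparison, as light chains, thick-filament proteins and chaperones of the sarcomere and as light chains, kinases and crosslinkers of non-muscle contractility. Of 16 sarcomere partners, 14 had an interval at a gene end and 7 of 14 with a start window had an interval over it, where 74.7% and 67.0% of protein-coding genes did, and their median was 19.7 per 100 kb. Mylk2 (46.3), Myl7 (42.7), Myom1 (30.6) and Mybph (29.3) were densest, and Mybpc3 (6.85), the cardiac myosin-binding protein gene, and Mybpc1 (12.6) were sparsest. Of the intervals in the window, 4 of 24 overlapped the gene itself at Mylk2, 0 of 18 at Myl7, 39 of 50 at Myom1 and 3 of 14 at Mybph. The rest lay in the 20 kb on either side. The extended windows of Myom1 and the non-muscle partners Myl12a and Myl12b all overlap one another, so their densities are not separate measurements. All 11 non-muscle partners had an end interval, all 10 with a start window had an interval over it, and their median was 34.5 per 100 kb, with Flna (51.2), Actn1 (46.7), Actn4 (44.0) and Myl9 (36.8) in front and Rock1 (8.87) lowest.

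As a check of the labelled cell type, all 12 fibroblast genes listed had an interval at a gene end, with a median of 39.7 per 100 kb. Of 10 genes of blood, endothelial and epithelial cells, 6 had one, with a median of 20.4, where protein-coding genes as a whole stood at 74.7% and 18.2. Among the macrophage genes, Csf1r (38.1 per 100 kb) and Cd68 (33.4) lay within the range of the fibroblast genes, 24.3 to 52.9. Adgre1 had 0 intervals in its window. The endothelial genes Pecam1 (26.7) and Cdh5 (26.5) lay within that range too. Cdh1 (23.4), Kdr (17.4), Epcam (14.5), Krt5 (10.9) and Ptprc (9.16) lay below it. The extended windows of Csf1r and the fibroblast gene Pdgfrb overlap, so their densities are not separate measurements. An interval set shows no share of cells, so which cells gave the intervals at the sarcomeric genes cannot be told apart.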

How the data were processed

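ATAC-seq of 6 libraries (3 groups of 2) amplified for 12 cycles per the labels' protocols had been joined by the authors into 1 interval set. The build GRCm38.p6 and the tools MACS2, DESeq2 and BWA are named, with no version or role, per the submitters' processing notes. Per the file headers, the deposited consensus intervals went through HOMER's annotatePeaks with GENCODE vM23. Thresholds of peak calling and the way peaks were merged were not given in the sources used here. Each deposited peak score is 0 and was not used, and the planned edgeR test per interval and the leaving out of libraries were not run because no value per library was given.

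Gene bounds came from the RefSeq gene table (21883 protein-coding genes on chromosomes 1 to 19, X and Y) and start sites from RefSeq start windows of 300 bases (21262 windows of 17491 protein-coding genes), all on GRCm38.p6. An interval counted with an overlap of at least 1 bp. All positions are 1-based. The named genes were the 10 members, intervals at gene ends, the widest per locus and all between Myh3 and Myh2, overlapping genes, and genes of fixed lists, the 4 densest and up to 4 sparsest. The members and lists were chosen with earlier results of these data known. The window measures were tested on simulated data against a base-by-base count. Alternatives covered the extension, minimum widths, midpoints, gene-end distances and the background. Calculations ran in Python 3.11.15 with pandas 2.3.3 and numpy 2.4.6, and figures were drawn with matplotlib 3.10.9.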

Additional observations from a re-analysis of the deposited data

How the results depend on the processing

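No paired analysis was possible because the intervals carry no value per library, so libraries could not be left out either. Read depth and peak thresholds limit every count here, since a weak site can be missed. Of 30 alternative values for 5 results, 17 stayed within 1.5 times. With intervals of at least 300 bp and of at least 600 bp, the density per 100 kb was 6.90 and 2.70 for the chromosome 11 cluster, 11.9 and 6.47 for the chromosome 14 pair, 6.24 and 3.82 for the sarcomeric median and 20.9 and 12.6 for the non-muscle median, since fewer intervals count. With no extension, the chromosome 14 pair had 5.69 and the sarcomeric median was 7.61. The ratio of the non-muscle to the sarcomeric median was 2.48 and ran from 2.41 to 4.27 over these settings. Sarcomeric genes with an interval at an end numbered 7 at a distance of 5 kb and 2 with intervals of at least 300 bp or of at least 600 bp. The share of all protein-coding genes was not calculated at these settings, so whether these counts are high or low is not known. Against other backgrounds a gene's percentile moved by at most 7.80 points.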
